A study of Mus musculus with 27 samples.

Results

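The comparison was made across genes between 2 mouse cell lines and 2 nuclear fractions, and used 12 of the 27 polyadenylated RNA libraries of the study. mNPC is a neural progenitor line that the submitters set up in their own laboratory, grown in DMEM/F12 with B27 lacking vitamin A and given EGF and FGF daily at 10 ng/ml. mESC is the E14 embryonic stem cell line, grown on gelatin with LIF. Neither line carries a stated mutation or drug treatment, and each cell type is 1 line, so the 3 libraries of a group are separate preparations of the same line (the submitters call them biological triplicates). Each line was split into chromatin-associated RNA, soluble nucleoplasmic RNA and cytoplasmic RNA, and RNA over 200 nt was selected by oligo-dT before stranded 100 bp paired-end sequencing. The 4 groups compared were mNPC chromatin, mNPC nucleoplasm, mESC chromatin and mESC nucleoplasm, with 3 libraries each, and the primary cortical neuron cultures of the study entered only the common fit. For each gene the log2 ratio of chromatin to nucleoplasm was taken in each line, and the shift is the mNPC ratio minus the mESC ratio. A positive shift means a gene was more chromatin-sided in mNPC, and a negative one more nucleoplasm-sided in mNPC. All 18226 genes that passed the filter on low counts, of 37332 in the table, were tested.

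As background, RNA in a chromatin fraction is either still being made, still being spliced, or held at its locus or in nearby nuclear bodies after the poly(A) tail has been added. Soluble nucleoplasmic RNA has left the gene and is on its way to export, and a nuclear preparation can also carry membrane that is continuous with or attached to the nuclear envelope, together with the ribosomes on it. Oligo-dT selection keeps molecules with a finished 3′ end, so a polyadenylated RNA on chromatin is mostly one that has been cleaved but not released. Several mRNAs for splicing factors are known to be kept in the nucleus with introns still present.

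The libraries held 10622897 to 18959333 counts in genes. The labels fitted the marker genes. Pou5f1 and Zfp42, transcription factors of pluripotent cells, had 0 counts in all 6 mNPC libraries, while the summed level of 32 pluripotency markers was 422.5 to 640.3 CPM (counts scaled to library size) in mNPC and 6364 to 9704 in mESC. The 27 progenitor markers summed to 10904 to 21064 CPM in mNPC and 526.5 to 756.2 in mESC, and Fabp7 was at 0 to 0.109 in mESC. The 16 markers of the oligodendrocyte lineage, among them Olig1 and Cspg4, summed to 1654 to 3781 CPM in mNPC against 87.3 to 144.4 in mESC, the 12 astrocyte markers to 1895 to 2881 CPM against 149.9 to 765.6, and the 26 neuron markers to 506.5 to 1630 CPM against 412.0 to 489.0. Of the neuron markers Map2 had the highest level, averaging 1088 CPM in mNPC chromatin and 514 in mNPC nucleoplasm on the scaled totals of the main fit. The defining neuron markers were low: Rbfox3 was at 0.962 to 2.66 CPM in mNPC and 1.7 to 9.05 in mESC. Neurod2 was at most 0.106 and Tbr1 at most 0.582 in both lines. The 15 microglial markers summed to 18.9 to 48.2 CPM in mNPC and 73.8 to 93.9 in mESC, with Aif1 at 0 in mNPC. Cx3cr1 was at 25.3 CPM in mNPC chromatin and 22.7 in mNPC nucleoplasm on the scaled totals of the main fit. The marker sums use plain totals, so the Cx3cr1 values cannot be set against the sum. Mitochondrially encoded genes took 8.81 to 11.7% of counts in mNPC nucleoplasm and 0.356 to 0.76% in mNPC chromatin, against 3.83 to 4.43% in mESC nucleoplasm and 0.523 to 0.724% in mESC chromatin. Library number 1 of mESC stood somewhat apart from numbers 2 and 3 in both fractions, with the lowest mean correlations to its group (0.9768 in chromatin and 0.9757 in nucleoplasm, across genes).

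Of the 18226 genes, 1321 (7.25%) were called higher and 1343 (7.37%) lower in mNPC than in mESC, with a call set at an adjusted p under 0.05 in edgeR's quasi-likelihood F-test and a log2 shift of at least 1 in size. Most calls came from a side taken in one line only. Of the genes called higher, 750 (56.8%) were on the chromatin side in mNPC and on neither side in mESC, and 21 (1.59%) were on opposite sides in the 2 lines. Of the genes called lower, 713 (53.1%) were on the nucleoplasm side in mNPC and on neither side in mESC, and 49 (3.65%) were on the nucleoplasm side in mNPC and the chromatin side in mESC. Within the lines, the chromatin side held 4135 genes (22.7%) in mNPC and 2919 (16%) in mESC. The nucleoplasm side held 3960 (21.7%) in mNPC and 3164 (17.4%) in mESC. Either side was called in 44.4% of genes in mNPC and 33.4% in mESC, and the shift in either direction in 14.6%. The split of the shift into higher and lower depended on how the libraries were scaled, because the scaling moves the median shift of all genes, which was 0.09 under TMM. Relative log expression factors gave a median of −0.15, with 745 genes higher (4.09%) and 2064 lower (11.3%). Library totals gave 0.36, with 2486 higher (13.6%) and 758 lower (4.16%). TMM against an mNPC cytoplasm library gave −0.23, with 611 higher (3.35%) and 2399 lower (13.2%). Under all 4 scalings 611 genes were called higher and 758 lower, and no gene was called in opposite directions. Levels of gene groups are therefore given relative to the median of all genes, which hardly depends on the scaling.

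**Figure D1:**
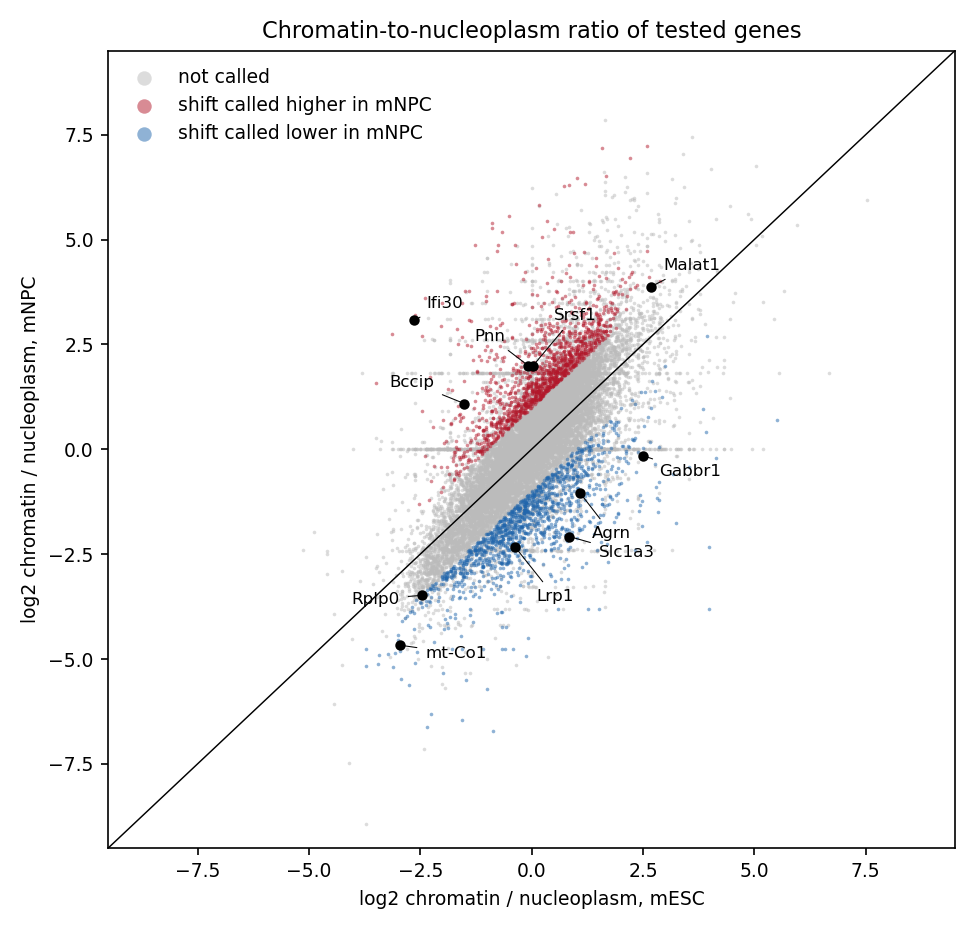
Log2 ratio of chromatin to nucleoplasm in mNPC (vertical axis) against the same ratio in mESC (horizontal axis), 1 point per tested gene with a symbol. Red points are the genes whose shift was called higher in mNPC, blue points those called lower, grey points the rest, black points are named genes, and the line marks equal ratios.

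More chromatin-sided in mNPC were the genes for SR proteins, the CLK kinases that phosphorylate them and other proteins of nuclear speckles, the bodies in which splicing factors are stored. Of 42 tested, 26 were higher in mNPC and none was lower, against 7.25% and 7.37% of all genes. Their median shift was 1.04 above that of all genes, 41 of 42 lay above it, and 17 of the 26 were called under all 4 scalings. Their median ratio was 2.07 in mNPC and 0.83 in mESC. Pnn, which encodes the speckle protein pinin (chromosome 12:59066919-59074017, mm10, plus strand), had 413, 384 and 383 CPM in mNPC chromatin and 85.2, 91.8 and 121 in mNPC nucleoplasm, against 138, 171 and 195 in mESC chromatin and 149, 178 and 201 in mESC nucleoplasm. In every same-numbered mNPC pair chromatin was more than 3 times above nucleoplasm, while the mESC fractions overlapped. Its shift was 2.06 ± 0.29 (SE, adjusted p = 1.0e-05).

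Srsf1, the founding SR splicing factor, had 620.8, 662 and 614 CPM in mNPC chromatin and 137, 140.2 and 199.6 in mNPC nucleoplasm, against 372, 462 and 532 in mESC chromatin and 375, 459 and 501 in mESC nucleoplasm. The mNPC fractions were far apart and the mESC ones overlapped, with a shift of 1.96 ± 0.26 (adjusted p = 4.1e-06). Snrnp70, the 70K protein of the U1 snRNP, averaged 1395 ± 130.4 CPM in mNPC chromatin and 275 ± 14 in mNPC nucleoplasm, against 539.8 ± 72.3 in mESC chromatin and 400.5 ± 74.0 in mESC nucleoplasm (SD, n = 3 each), a shift of 1.91 ± 0.27 (adjusted p = 8.1e-06). Srrm2, a scaffold of speckles, was on the chromatin side in mNPC and on neither side in mESC (ratio 2.42 in mNPC and 0.92 in mESC), at 2442 ± 403 CPM in chromatin and 457 ± 100.0 in nucleoplasm, against 1800 ± 718 and 953 ± 32.9 in mESC. Its shift was 1.5 ± 0.33 (adjusted p = 0.0013). All 4 CLK kinases were higher in mNPC, Clk1 by 1.84, Clk4 by 1.36, Clk3 by 1.12 and Clk2 by 1.01. So were the U1-associated Luc7l3 (1.72) and Luc7l (1.45), the cyclins L Ccnl1 (1.52) and Ccnl2 (1.54), and the SR proteins Srsf5 (1.46), Srsf6 (1.45), Srsf11 (1.18), Srsf3 (1.15), Srsf2 (1.05) and Srsf9 (1.00). These are calls under the main scaling. Under TMM against an mNPC cytoplasm library 17 of the 42 were called higher, so the calls of members with a shift near 1 depend on the scaling.

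**Figure D2:**
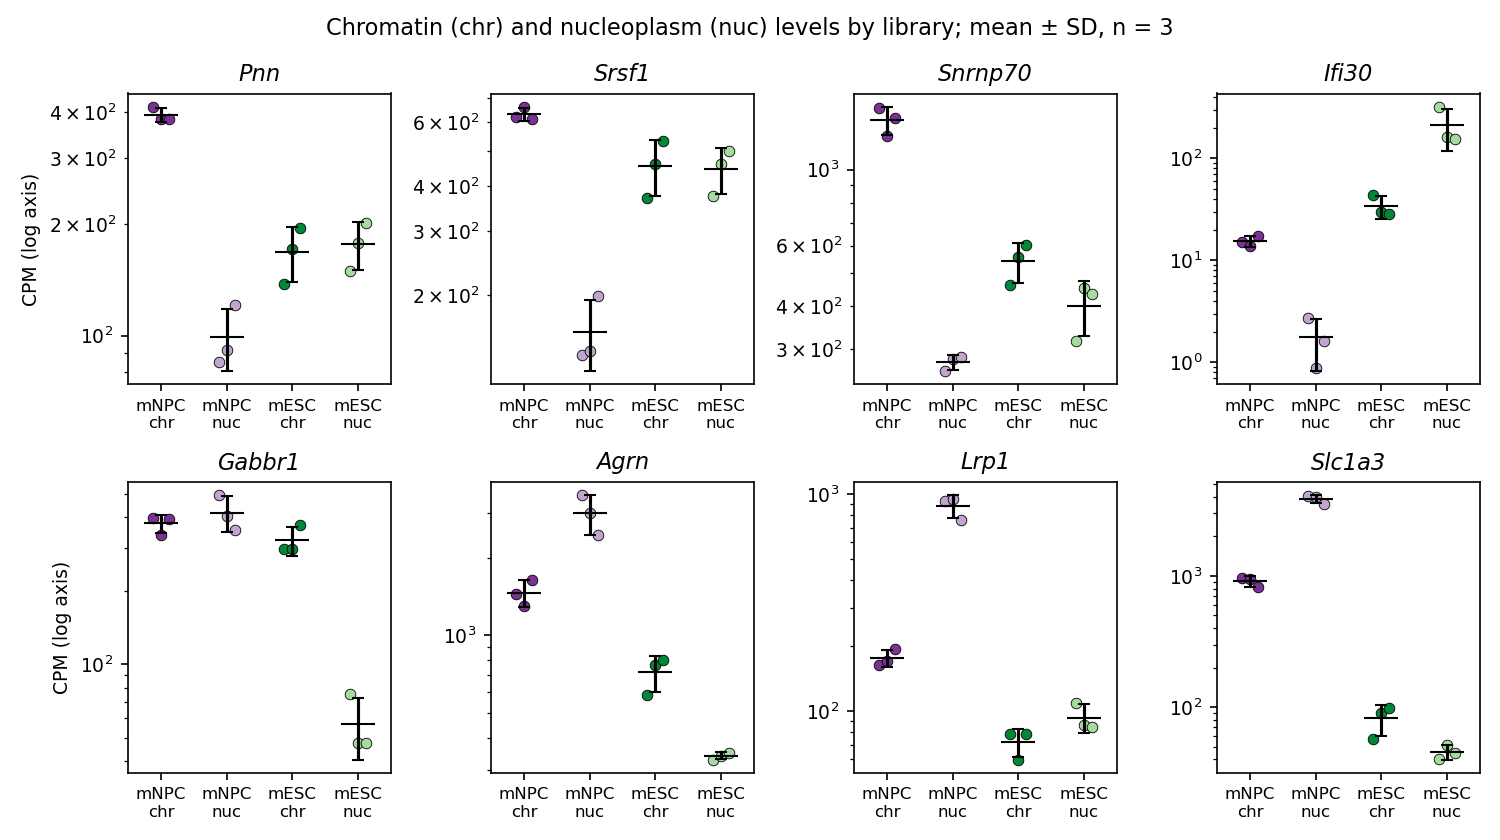
CPM (log axis, its range set for each gene) of 8 genes in the 3 libraries of each fraction, with mean ± SD; chr is chromatin and nuc is nucleoplasm. Pnn, Srsf1 and Snrnp70 differ between fractions in mNPC and little or not at all in mESC, Ifi30 and Agrn are called on opposite sides in the 2 lines, Slc1a3 is on the nucleoplasm side in mNPC only, Gabbr1 is on the chromatin side in mESC only, and Lrp1 is on the nucleoplasm side in mNPC only.

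Other RNA processing genes shifted less, or in part. Their counts are set against 7.25% higher and 7.37% lower of all genes. Of 24 genes for the nuclear exosome and its helpers, which degrade or hold nuclear RNA, 8 were higher and none lower, with a median 0.74 above that of all genes, though 3 of the 8 were called under all 4 scalings. The 8 included the exosome subunits Exosc3 (1.5), Exosc7 (1.42) and Dis3 (1.30), the exosome adaptors Rbm7 (1.22), Zcchc8 (1.04) and Zcchc7 (1.25), and the export receptor Nxf1 (1.03, but 0.70 under TMM against an mNPC cytoplasm library and 0.16 in TPM). Pabpn1, the nuclear poly(A)-binding protein, had a shift of 2.42 ± 0.27, but 99.4% of its span is shared with a predicted gene, so its reads are uncertain. Core spliceosome genes did not follow the speckle genes: 5 of 40 were higher (Snrpa1 1.32, Sf3b1 1.28, Prpf38b 1.11, Snrpf 1.09 and Dhx15 1.05, named because they were so few), none was lower, and the median was 0.03 above that of all genes. Snrnp70 of the U1 snRNP and the U1-associated Luc7l and Luc7l3 were counted in the speckle list, so this contrast depends in part on how genes were assigned. Sf3b1, a U2 snRNP subunit, was at 0.95 under TMM against an mNPC cytoplasm library. Prpf8, at the centre of the spliceosome, had a shift of −0.35 (adjusted p = 0.45). Of 30 hnRNP genes, which bind nascent RNA, 1 was higher (Hnrnpa2b1 1.00, and 0.67 under that scaling) and 2 lower (Matr3 −1.19 and Hnrnpf −1.05), with the median at that of all genes.

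Among 13 tested nuclear noncoding RNAs, 4 were higher and 1 lower in mNPC, against 7.25% and 7.37% of all genes. Malat1, a speckle-associated RNA, had 3723, 3990.1 and 5032 CPM in mNPC chromatin and 252.3, 254.8 and 364 in mNPC nucleoplasm, against 1828, 1232 and 1476 in mESC chromatin and 342, 210.3 and 160.4 in mESC nucleoplasm. It was on chromatin in all libraries of both lines, and its shift of 1.20 ± 0.29 (adjusted p = 0.0027) dropped to 0.88 under TMM against an mNPC cytoplasm library and to 0.84 without mESC nucleoplasm library 1 with the scaling held, both below the size asked for a call. With TMM recomputed after leaving out a library, Malat1 was at 0.49 without mESC nucleoplasm 1, 0.79 without mNPC nucleoplasm 1 and 0.80 without mNPC nucleoplasm 2. Snhg11 (1.23, and 0.91 under that scaling), Firre (1.02) and Tsix (4.85) were the others that were higher, and Airn (−1.23, adjusted p = 0.049) was lower. Tsix and Xist overlap on opposite strands, and Xist had 0 counts in mESC nucleoplasm, so neither shift can be read. Among 10 host genes of small nucleolar RNAs, only Snhg20 was called, at 51.9 ± 7.55 CPM in mNPC chromatin and 14.5 ± 2.55 in mNPC nucleoplasm, against 58.1 ± 9.55 and 58.0 ± 12.4 in mESC (shift 1.84 ± 0.23, adjusted p = 2.0e-06). Of 254 loci annotated as small nucleolar RNAs, 54 (21.3%) were called higher and 1 lower under the main scaling. The libraries were selected for longer RNA with a poly(A) tail, and the counting options are not stated. Reads of the small RNAs and of host gene introns were not told apart. These calls therefore cannot be read as a shift of the small RNAs.

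The 12 largest called shifts to chromatin among genes with at least 10 CPM in both lines and ratios that did not overlap came from several functions. Ifi30, a lysosomal thiol reductase, led with a shift of 5.71 ± 0.43 (adjusted p = 2.9e-09). It had 15.2, 13.8 and 17.4 CPM in mNPC chromatin and 2.75, 0.89 and 1.64 in mNPC nucleoplasm, against 44.2, 29.8 and 28.4 in mESC chromatin and 321, 163 and 153 in mESC nucleoplasm. The mNPC libraries were higher in chromatin and the mESC libraries higher in nucleoplasm, with no overlap in either line. Acrbp, which encodes a proacrosin-binding protein, was at 77.4 ± 10.6 CPM in mNPC chromatin and 7.04 ± 2.08 in mNPC nucleoplasm, against 15.7 ± 1.67 and 21.4 ± 2.69 in mESC (3.91 ± 0.27, adjusted p = 7.7e-10). Atp10d and Atp10a, lipid flippases, shifted by 3.07 and 2.37, and Bccip, a BRCA2-interacting protein, by 2.60. The others were Card19 (2.53), Cercam (2.47), the major vault protein gene Mvp (2.44, with 47.3% of its span covered by another gene), the kinase Nek3 (2.38), the syntaxin Stx3 (2.37), the cAMP phosphodiesterase Pde4d (2.33) and the de novo DNA methyltransferase Dnmt3b (2.32). Pde4d is the exception in transcript-based values: its shift in the deposited TPM was 0.41.

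In the other direction, genes for proteins that enter the secretory pathway stood out. Of 49 genes for secreted and extracellular matrix proteins, 22 were lower in mNPC and 1 was higher, with a median 1.20 below that of all genes, and 13 were called lower under all 4 scalings. Their median ratio was −2.36 in mNPC and −1.25 in mESC, though single members such as Agrn were on the chromatin side in mESC. In TPM 10 were lower and 2 higher, against 5.64% and 17.5% of 26160 genes tested there. Of 57 genes for cell surface receptors and adhesion proteins, 19 were lower and none higher, against 7.37% and 7.25% of all genes, with a median 0.85 below that of all genes and 9 called under all 4 scalings. In TPM 5 of them were lower and 5 higher, against 5.64% and 17.5% of the genes tested there. The calls were thus not one-sided in TPM, though 44 of the 57 (77.2%) lay below the TPM median of all tested genes. Such mRNAs are translated at the endoplasmic reticulum, to which a hydrophobic stretch at the start of many of these proteins directs the ribosome. Codons with T at the second base encode hydrophobic residues (phenylalanine, leucine, isoleucine, methionine and valine), so the first 90 bases of the coding sequence show this stretch. The starts are shown for the 2 largest called shifts in each of the secreted, surface and speckle lists among members with at least 10 CPM in both lines, and for Slc1a3, from the GENCODE M21 transcript with the longest coding sequence, 5′ to 3′ on the coding strand, with codons 2 to 30 that have T at the second base in capitals:
Agrn: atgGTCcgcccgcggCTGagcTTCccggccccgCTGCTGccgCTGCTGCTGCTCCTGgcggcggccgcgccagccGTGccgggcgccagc
Hspg2: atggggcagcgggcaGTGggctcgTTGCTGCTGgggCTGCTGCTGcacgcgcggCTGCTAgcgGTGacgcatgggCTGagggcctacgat
Lrp1: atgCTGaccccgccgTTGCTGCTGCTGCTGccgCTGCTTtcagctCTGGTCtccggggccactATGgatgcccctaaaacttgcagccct
Nrp2: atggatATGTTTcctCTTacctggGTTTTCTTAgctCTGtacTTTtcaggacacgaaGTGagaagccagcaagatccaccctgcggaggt
Slc1a3: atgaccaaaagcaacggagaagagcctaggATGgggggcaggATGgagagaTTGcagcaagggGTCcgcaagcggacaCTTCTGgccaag
Pnn: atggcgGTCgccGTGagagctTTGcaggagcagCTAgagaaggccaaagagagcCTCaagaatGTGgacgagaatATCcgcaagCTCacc
Srsf1: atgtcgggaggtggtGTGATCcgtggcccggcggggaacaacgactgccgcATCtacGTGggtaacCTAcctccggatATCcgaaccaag
Agrn, Hspg2 and Lrp1 each had 11 such codons of 29 and Nrp2 had 9, most of them in 1 block after the start codon. Slc1a3, a transporter with membrane-spanning segments further inside, had 6, Pnn 8 and Srsf1 6, and these were scattered.

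Agrn encodes agrin, a heparan sulphate proteoglycan of basement membranes (chromosome 4:156165290-156197488, mm10, minus strand). It had 1451, 1305 and 1645 CPM in mNPC chromatin and 3517, 2989 and 2464 in mNPC nucleoplasm, against 586, 766 and 802 in mESC chromatin and 329, 340.2 and 350.0 in mESC nucleoplasm. Nucleoplasm was higher in every mNPC pair and chromatin in every mESC pair, and the shift was −2.11 ± 0.27 (adjusted p = 2.3e-06). Hspg2, the proteoglycan perlecan (chromosome 4:137468769-137570630, plus strand), had 42.3, 53.4 and 61.3 CPM in mNPC chromatin and 341, 399.7 and 306 in mNPC nucleoplasm, against 439, 373 and 379 in mESC chromatin and 598, 600.4 and 559 in mESC nucleoplasm (−2.18 ± 0.27, adjusted p = 1.7e-06). Nucleoplasm was higher in every pair of both lines, by a call in mNPC only (ratio −2.74 in mNPC and −0.56 in mESC). Among the other members that fell were the laminins Lama5 (−2.11), Lama2 (−1.98) and Lamb2 (−1.86), the collagen Col4a1 (−1.92), and fibronectin Fn1 (−1.52). Bcan, the proteoglycan brevican, fell by 1.55 on the log2 scale (adjusted p = 0.0014), and the related Ncan had a shift of −0.75 (adjusted p = 0.11). The 1 member that was higher was the growth factor Mdk, named for that reason, at 1.89 ± 0.917 CPM in mNPC chromatin and 0.51 ± 0.300 in mNPC nucleoplasm, against 32.5 ± 1.65 and 159 ± 7.08 in mESC (4.02 ± 0.37, adjusted p = 2.8e-08).

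Lrp1, an endocytic receptor of the LDL receptor family (chromosome 10:127538161-127621148, minus strand), had 163, 170.3 and 194 CPM in mNPC chromatin and 932, 953 and 763 in mNPC nucleoplasm, against 78.5, 59.8 and 78.3 in mESC chromatin and 109, 86.1 and 84.4 in mESC nucleoplasm. The mNPC fractions were about 5 times apart and the mESC fractions close together, with a shift of −1.96 ± 0.26 (adjusted p = 3.5e-06). In the deposited TPM its shift was −0.78. Nrp2, a semaphorin and VEGF co-receptor (chromosome 1:62703285-62818695, plus strand), averaged 91.8 ± 18.7 CPM in mNPC chromatin and 587 ± 66.9 in mNPC nucleoplasm, against 102 ± 14.2 and 170.2 ± 27.6 in mESC (−1.93 ± 0.26, adjusted p = 5.7e-06). The semaphorin receptors Plxnb2 (−1.85) and Plxnb1 (−1.76), the receptor kinase Ephb2 (−1.68), N-cadherin Cdh2 (−1.32), the Hedgehog transducer Smo (−1.19) and Notch3 (−1.16) also fell. Ptprz1, a receptor phosphatase of progenitors, fell by 1.65 on the log2 scale and its levels differ greatly between the lines, at 2387 ± 240.1 CPM in mNPC chromatin and 6522 ± 744 in mNPC nucleoplasm, against 4.49 ± 0.790 and 3.93 ± 0.925 in mESC. Ptprs, another receptor phosphatase, had a shift of −0.83 (adjusted p = 0.0089), under the size asked for a call.

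Slc1a3, the glial glutamate transporter GLAST (chromosome 15:8634124-8710764, minus strand), was among the 12 largest called shifts to nucleoplasm. It had 971, 942 and 818 CPM in mNPC chromatin and 4040.0, 3976 and 3541 in mNPC nucleoplasm, against 57.5, 90.8 and 97.6 in mESC chromatin and 40.2, 51.3 and 44.8 in mESC nucleoplasm. It was about 4 times higher in nucleoplasm in mNPC and higher in chromatin in each mESC pair (−2.93 ± 0.27, adjusted p = 2.8e-08).

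Over 15518 tested protein-coding genes with a coding sequence, the share called lower was larger where the start of the coding sequence had more codons with T at the second base. It was 5.41% of 4507 genes with 0 to 5 such codons among codons 2 to 30, 7.77% of 3567 genes with 8 to 9, 12.8% of 2139 with 10 to 11 and 16.1% of 516 with 14 or more, while the share called higher was 8.32, 7.29, 6.78 and 2.91% in the same classes. The median was 9 codons in genes called lower, 7 in genes called higher and 7 in all, and over codons 2 to 20 the medians were 6, 4 and 5. By list, the median over codons 2 to 30 was 10 in the secreted, the surface and the endoplasmic reticulum genes, 8 in the synaptic genes and 6 in the speckle genes. Only 1 of the 46 endoplasmic reticulum genes was called lower, so such codons did not go with the shift in every list. Among the genes with the longest spans (the 10th of 10 span classes) the share called lower was 43.5% of 69 genes with 14 or more such codons and 21% of 1485 with fewer, and in the other spans 11.9% of 447 and 6.32% of 13517. Genes of 1 family share sequence, so the genes are not independent and no test was run.

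**Figure D3:**
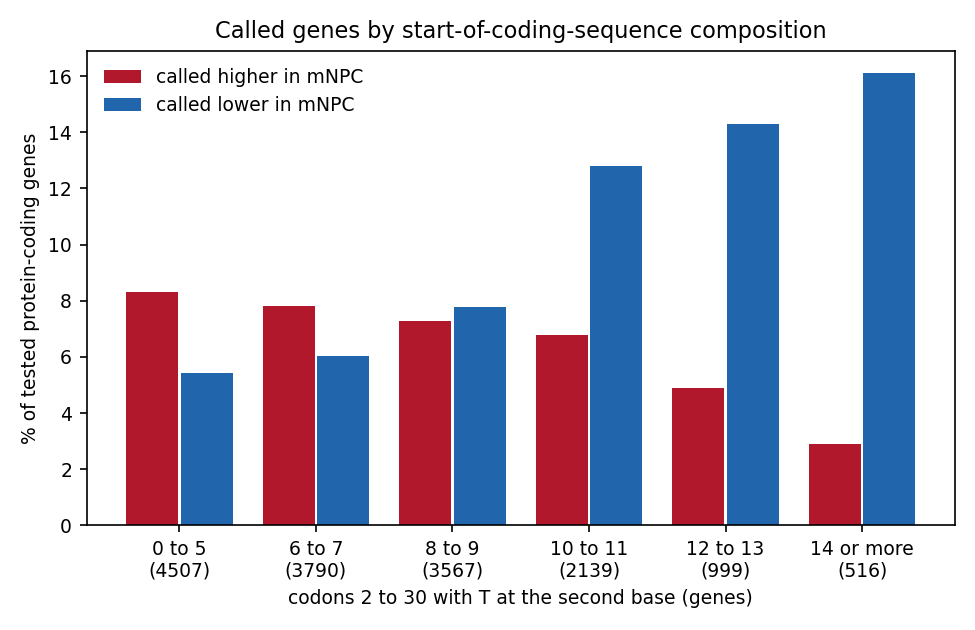
Share of tested protein-coding genes called higher (red, left bar) or lower (blue, right bar) in mNPC, by the number of codons with T at the second base among codons 2 to 30 (number of genes in parentheses). The blue bars rise to 16.1% in the class with 14 or more and the red bars fall to 2.91%.

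Synaptic receptor and ion channel genes were shifted in the same direction from another starting point. Of 49 tested, 23 were lower in mNPC and 1 was higher, against 7.37% and 7.25% of all genes. Under all 4 scalings 17 were called lower, and the median of the 49 was 1.40 below that of all genes. The median ratio of the list was −0.23 in mNPC and 0.94 in mESC. Gabbr1, the GABA-B receptor subunit that the study itself follows, had 399, 339.9 and 395 CPM in mNPC chromatin and 493, 405 and 355 in mNPC nucleoplasm, against 297, 298 and 371 in mESC chromatin and 75.4, 47.5 and 47.6 in mESC nucleoplasm. Its chromatin level was close in the 2 lines, the mNPC fractions overlapped, and the mESC nucleoplasm was the group that was low (shift −2.65 ± 0.22, adjusted p = 1.7e-08). In the deposited TPM the shift was −1.67. As the study chose it, Gabbr1 is not independent evidence of the direction. Nrxn2, a presynaptic adhesion protein, averaged 94.6 ± 2.17 CPM in mNPC chromatin and 370.4 ± 84.6 in mNPC nucleoplasm, against 17.5 ± 3.92 and 15.0 ± 3.37 in mESC (−2.19 ± 0.27, adjusted p = 1.2e-06). The glutamate receptors Grin1 (−2.89), Gria1 (−2.66), Grik2 (−2.21), Gria4 (−1.82) and Grm5 (−1.80) and the neuroligins Nlgn2 (−1.82), Nlgn1 (−1.77) and Nlgn3 (−1.33) also fell. The sodium channel Scn8a was the 1 member that was higher (1.27 ± 0.39, adjusted p = 0.016), at 104 ± 6.26 CPM in mNPC chromatin and 31.3 ± 4.57 in mNPC nucleoplasm, against 30.3 ± 18.6 and 22 ± 8.73 in mESC. Of the 49 members, 7 had 3 or fewer counts in a group, and the median shift was −1.31 with them and −1.35 without them. With TPM, 9 members were called lower and 5 higher, against 5.64% and 17.5% of the genes tested there, and 41 of the 49 lay below the TPM median of all tested genes.

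**Figure D4:**
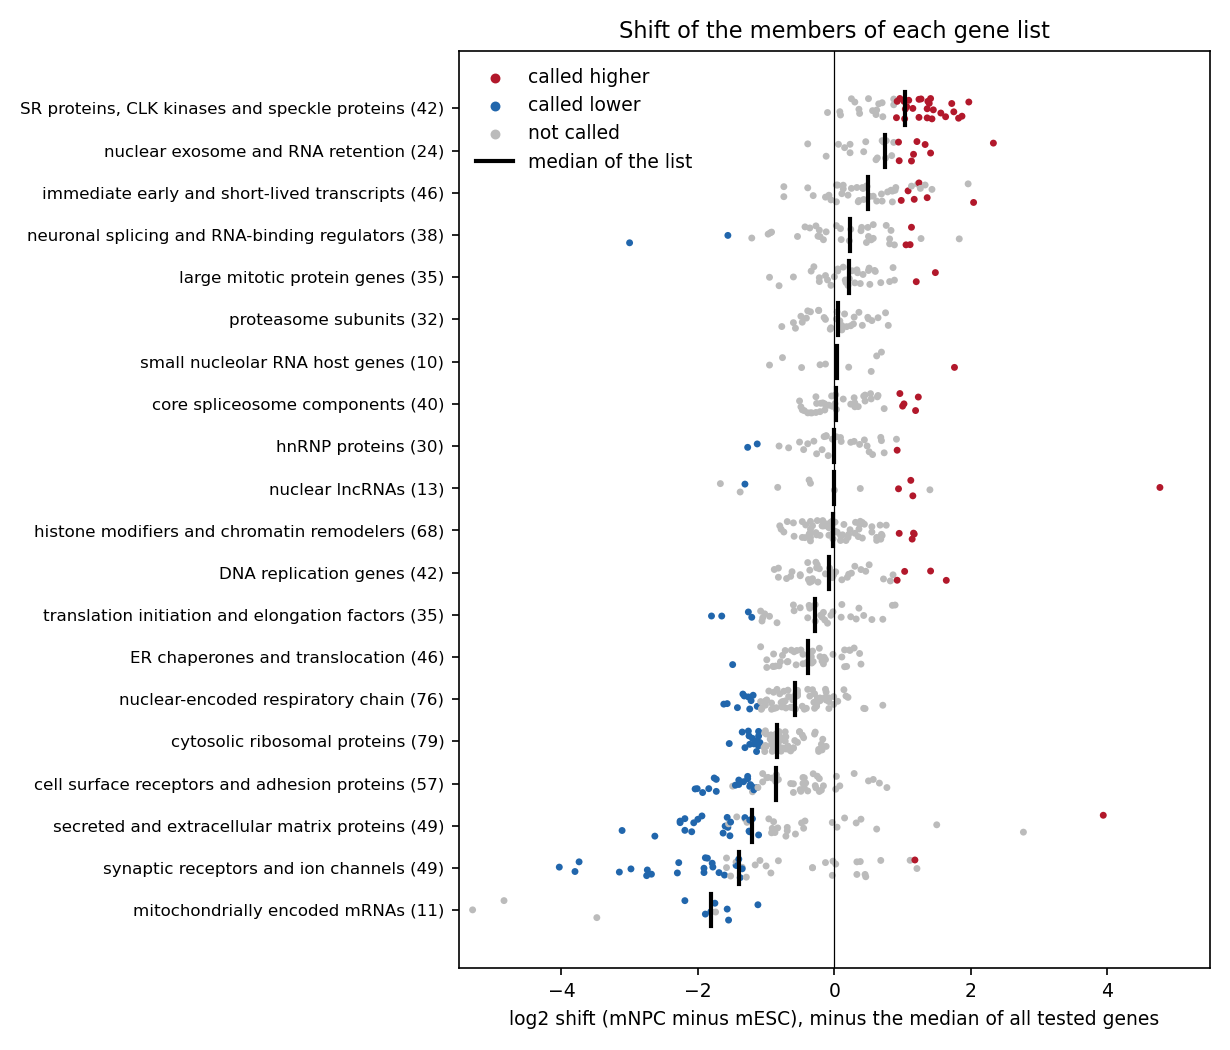
Log2 shift of each tested member of 20 gene lists, given relative to the median of all tested genes (horizontal axis), with called members in red or blue, the others in grey, and a black bar at the median of the list (number tested in parentheses). Speckle genes lie highest, with a median of 1.04, and mitochondrially encoded, synaptic and secreted genes lowest. The points furthest right are Tsix and Mdk.

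The synaptic list holds long genes, with a median span of 175 kb, and gene span itself went with the shift. The secreted and surface lists also had long spans, with medians of 60.5 and 62.1 kb, against 23.62 kb of all tested protein-coding genes. The endoplasmic reticulum list had a median of 17.7 kb. The part of span in the shifts of these lists was not tested. Protein-coding genes were put into 10 equal classes by span. The median shift of classes 1 to 9 lay between 0.01 and 0.19, and that of the class with the longest spans (132.5 to 4435 kb) was −0.43, with 21.9% of its genes called lower and 3.2% higher. In that class the median ratio was 0.03 in mNPC and 0.51 in mESC, and in the class with the shortest spans (0.123 to 4.249 kb) it was −0.64 in mNPC and −1.01 in mESC. The counts cover introns, which fill most of a long gene: exons made up 3.43% of the span in the class of longest genes. In the deposited TPM, which are based on transcripts, the median shift of that class was 0.24 below the median of all tested genes, against 0.52 below in the counts. The genes called lower had a median span of 53.98 kb, those called higher 20.49 kb, and all 23.62 kb.

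**Figure D5:**
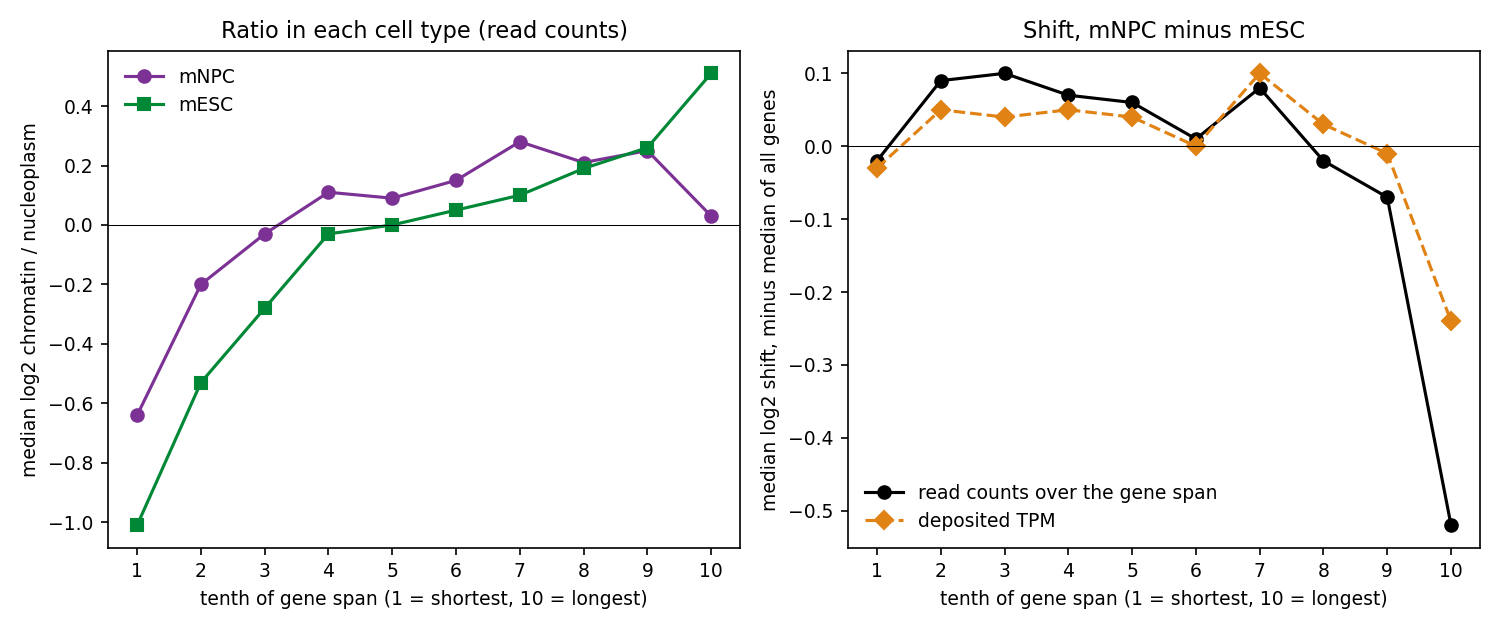
Median values of tested protein-coding genes in 10 equal classes of gene span, from the shortest (1) to the longest (10). Left, log2 ratio of chromatin to nucleoplasm in mNPC and in mESC. Right, shift relative to the median of all tested genes, from the read counts over the gene span (−0.52 in class 10) and from the deposited TPM (−0.24 in class 10).

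Genes for the protein synthesis machinery differed among themselves, and are set against 7.25% higher and 7.37% lower of all genes. All 79 cytosolic ribosomal protein genes lay below the median of all genes, 16 were called lower and none higher, and the list median was −2.87 in mNPC and −2.12 in mESC. The number called lower was 1 under library totals and 52 under TMM against an mNPC cytoplasm library. In TPM 1 was lower and 3 were higher, against 5.64% and 17.5% of the genes tested there, and 73 of the 79 lay below the TPM median of all tested genes. Rplp0, a stalk protein of the large subunit, had 154, 121 and 116 CPM in mNPC chromatin and 1753, 1529 and 1088 in mNPC nucleoplasm, against 233, 237 and 255 in mESC chromatin and 1290.2, 1303 and 1363 in mESC nucleoplasm. Nucleoplasm was higher in all 6 pairs, with a shift of −1.03 ± 0.22 (adjusted p = 0.00081, and −0.73 under library totals). Of 35 translation factors, whose shifts ran from −1.72 to 0.97, 4 were lower (Pabpc1 −1.72, Tpt1 −1.57, Eif4b −1.18 and Eef1b2 −1.13), and Pabpc1, the cytoplasmic poly(A)-binding protein, was at 89.5 ± 3.85 CPM in mNPC chromatin and 571 ± 18.4 in mNPC nucleoplasm, against 1024 ± 208 and 1977 ± 227 in mESC. Of 46 genes for chaperones and translocation factors of the endoplasmic reticulum, 1 was lower (Ssr2, −1.40) and none higher, with a median 0.38 below that of all genes. The number lower was 8 under relative log expression factors, 11 under TMM against an mNPC cytoplasm library and 0 in TPM. Their ratios were already low in both lines (median −2.36 in mNPC and −1.96 in mESC). Of 32 proteasome genes none was called in either direction under the main scaling. Library totals gave 3 higher, TMM against an mNPC cytoplasm library 1 lower, and TPM 7 higher, against 17.5% of the genes tested in TPM.

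Mitochondrially encoded mRNAs, which are made outside the nucleus, had the lowest ratios. Of 11 tested 7 were lower in mNPC and none higher, with median ratios of −5.17 in mNPC and −3.45 in mESC. The median shift was −1.72, and −1.66 without the 4 members that had 3 or fewer counts in a group. Mt-Co1, a subunit of cytochrome oxidase, had 3423, 1657 and 2246 CPM in mNPC chromatin and 61915, 55860.0 and 68894 in mNPC nucleoplasm, against 3490.5, 2602 and 2472 in mESC chromatin and 22068, 22687 and 21283 in mESC nucleoplasm. Chromatin levels overlapped between the lines and nucleoplasm was nearly 3 times higher in mNPC (shift −1.72 ± 0.31, adjusted p = 0.00018). Of 76 nuclear genes for the respiratory chain 10 were lower and none higher, against 7.37% and 7.25% of all genes, led by Sdha (−1.53 ± 0.17, adjusted p = 3.6e-07), a subunit of succinate dehydrogenase. The number lower was 3 under library totals, 23 under relative log expression factors and 27 under TMM against an mNPC cytoplasm library. In TPM 1 was lower and 1 higher, against 5.64% and 17.5% of the genes tested there, and 69 of the 76 lay below the TPM median of all tested genes. The nucleoplasm fraction thus held more mitochondrial RNA in mNPC than in mESC, and its part in the shifts of the secreted, surface, synaptic and ribosomal genes was not tested.

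Groups of the cell cycle and of gene control are set against 7.25% higher and 7.37% lower of all genes. Of 46 immediate early and other short-lived transcripts 6 were higher and none lower, with a median 0.50 above that of all genes. The number higher was 2 under TMM against an mNPC cytoplasm library and 18 under library totals. Dusp1, a phosphatase of MAP kinases, averaged 18.6 ± 5.08 CPM in mNPC chromatin and 8.24 ± 2.34 in mNPC nucleoplasm, against 13.4 ± 4.40 and 25.7 ± 8.60 in mESC (2.12 ± 0.41, adjusted p = 0.00037), and the RNA decay factor Zfp36l1 shifted by 1.44. Of 35 large mitotic genes 2 were higher, the kinesin Kif11 (1.56 ± 0.25) and the condensin subunit Ncapd3 (1.28, and 0.95 under TMM against an mNPC cytoplasm library), and Mki67 and Top2a had shifts of −0.02 and −0.52. Of 42 replication genes 4 were higher (Tyms 1.72, Rpa3 1.49, Pold3 1.11 and Rfc5 1.00). Of 68 chromatin regulators 4 were higher (Eed 1.25, Hdac1 1.24, Kat2b 1.22 and Kdm6a 1.03), and Eed and Hdac1 were at 0.92 and 0.91 under TMM against an mNPC cytoplasm library. Of 38 neuronal splicing and RNA-binding regulators 3 were higher (Cpeb4 1.22, Fmr1 1.20 and Cpeb3 1.14) and 2 lower (Khdrbs2 −2.91 and Khdrbs3 −1.47). The study's splicing regulators were not called: Ptbp1 had a shift of 0.59 ± 0.26 (adjusted p = 0.10) and Ptbp2 of 0.49 ± 0.25 (adjusted p = 0.15). The imprinted noncoding RNA Meg3 was at 2.64 ± 1.10 CPM in mNPC chromatin and 0.210 ± 0.0943 in mNPC nucleoplasm, against 1377 ± 408 and 315 ± 28.3 in mESC (1.48 ± 0.86, adjusted p = 0.22).

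The 12 largest called shifts to nucleoplasm were led by Ecm1, a secreted matrix protein, at 9.44, 8.43 and 10.9 CPM in mNPC chromatin and 28.0, 24.6 and 7.44 in mNPC nucleoplasm, against 21.1, 17.7 and 14 in mESC chromatin and 4.31, 1.87 and 3.61 in mESC nucleoplasm (−3.51 ± 0.48, adjusted p = 5.6e-06). The third mNPC nucleoplasm library was below its chromatin partner, while all mESC pairs were on the chromatin side. In this group were also the heparan sulphate sulphotransferase Hs6st2 (−3.02), the lysosomal mannosidase Manba (−2.68), the secreted peptidase Cpq (−2.55) and thrombospondin Thbs1 (−2.54), next to Slc1a3 and Gabbr1. Outside the secretory pathway were Lars2, the mitochondrial leucyl-tRNA synthetase (−2.97), and Lyrm4, a factor of iron-sulphur cluster assembly (−2.60, and −0.32 in TPM). The shift of the receptor Il31ra (−3.03 ± 0.90, not called without mESC chromatin library 2) and of the protocadherin Pcdhgc4 (−2.63 ± 0.22) was not seen in TPM, where it was 0.03 and 1.43. Pcdhgc4 shares its last exons with other protocadherins, so how its reads were assigned is uncertain.

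Among cell type markers, 6 of 27 progenitor markers were lower and 1 higher, against 7.37% and 7.25% of all genes. Of 32 pluripotency markers 4 were higher (12.5%) and none lower, with 17 of the 32 at 3 or fewer counts in a group. Vim, an intermediate filament of progenitors, fell by 1.20 on the log2 scale (346 CPM in mNPC chromatin and 1558 in mNPC nucleoplasm, against 28.3 and 55.3 in mESC). Dnmt3b, a pluripotency marker with measurable levels in both lines, shifted by 2.32 ± 0.48 (adjusted p = 0.00067), at 16.6 CPM in mNPC chromatin and 3.40 in mNPC nucleoplasm, against 149.8 and 155 in mESC.

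Cytoplasmic levels, which the shift does not use, differed between the directions. Of 1247 genes called lower with at least 1 CPM in the cytoplasm of a line, 760 (60.9%) were at least 2 times higher in mNPC cytoplasm than in mESC cytoplasm and 157 (12.6%) at least 2 times lower, against 31.3% and 29.3% of all 14680 such genes. Of 1157 genes called higher, 198 (17.1%) were at least 2 times higher in mNPC cytoplasm and 475 (41.1%) at least 2 times lower. The speckle genes had a median log2 difference of −0.65 in cytoplasm, with 11 of 42 at least 2 times lower in mNPC and 1 higher, and the secreted genes one of 2.48, with 27 of 43 higher and 9 lower. The deposited TPM come from the same libraries by another route. Relative to the median of all tested genes, 92.4% of 1253 genes called higher lay above it in TPM and 96% of 1301 genes called lower lay below it. These genes were picked by their counts in the same libraries, so the shares are not separate evidence. Their median TPM shifts were 1.60 and −0.60, against 0.41 for all tested genes. All 42 speckle genes were above the median of all tested genes in TPM, by 1.26 at their median, and 81.6% of the secreted genes and 83.7% of the synaptic genes were below it.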

How the data were processed

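The authors deposited read counts per gene for 27 libraries and transcript abundances as TPM. The submitters' processing notes list STAR, featureCounts, kallisto 0.43.0 and the mm10 genome, with no counting options or strand setting. In the deposited counts, the length of all 37332 genes equals end minus start plus 1, so introns lie in the counted span. GENCODE M21 gave symbols for 35533 genes. The deposited chromatin columns hold whole-number counts like the other columns and were analysed as counts.

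Genes passing filterByExpr were scaled by TMM and fitted as 9 group means in a single quasi-likelihood model (edgeR 4.0.16, R 4.3.3), and Benjamini-Hochberg adjustment ran over 18226 genes in each of 3 contrasts. SE is the size of the log2 value divided by the square root of F. CPM use TMM-scaled totals, except for marker sums, which use plain totals. The fit was also run on data simulated under the main scaling with independent libraries. Such data do not cover the choice of scaling or the pairing of libraries. TPM were tested as log2(TPM + 1) with limma 3.58.1. Alternatives covered scaling, filters, DESeq2 1.42.0, a replicate block and leaving out libraries. Chromatin and nucleoplasm libraries of 1 number deviated together in mESC (correlations of 0.408 to 0.716) and weakly in mNPC (0.0366 to 0.253). The main fit used no block for this pairing, and the replicate block is given as an alternative.

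Members and lists were chosen with earlier results of these data known. Named genes are the 12 largest calls in each direction with at least 10 CPM in a fraction of both lines, a span of at least 200 bases that is mostly free of other genes and ratios that do not overlap, and in each list the 2 highest and the 2 largest calls; genes named beyond these, to spell out a count, were chosen after their values were seen. Some genes that met these conditions are not reported here. P-values measure the spread between preparations of 1 line. In bulk RNA, fewer cells of a type and less RNA per cell cannot be told apart.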

Additional observations from a re-analysis of the deposited data

Results flagged for a closer look

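The shift is itself a test of whether the fraction difference of mNPC differs from that of mESC, and it did so for 1321 genes in the higher and 1343 in the lower direction. The genes named here that were called on opposite sides in the 2 lines included the 7 that follow. The means of Mdk, described above, also lay on opposite sides, at low levels in mNPC. Ifi30 (5.71), Cd68 (3.48), Atp10d (3.07) and Bccip (2.60) were on the chromatin side in mNPC and the nucleoplasm side in mESC. Ecm1 (−3.51), Lars2 (−2.97) and Agrn (−2.11) were on the nucleoplasm side in mNPC and the chromatin side in mESC. Cd68, a macrophage marker, was at 8.89 CPM in mNPC chromatin and 1.60 in mNPC nucleoplasm, against 14 and 28.2 in mESC, and the 15 microglial markers, Cd68 among them, summed to 18.9 to 48.2 CPM in mNPC and 73.8 to 93.9 in mESC. Aif1 and Csf1r were at 0 in mNPC, and Cx3cr1 was at 25.3 in mNPC chromatin and 22.7 in mNPC nucleoplasm. The Cd68 and Cx3cr1 values use scaled totals and the marker sums plain totals, so they cannot be set against each other.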

How the results depend on the processing

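The counts of calls depend on scaling. For the shift, genes higher and lower were 745 and 2064 under relative log expression factors, 752 and 2115 by DESeq2, 611 and 2399 under TMM against an mNPC cytoplasm library (an alternative chosen after seeing the data), 615 and 2381 with a filter of at least 1 CPM, and 2486 and 758 under library totals. Without a filter 803 genes were higher, and without a minimum fold 2626 were higher and 2178 lower. Leaving out mESC library 1 in both fractions gave 753 and 2115. Leaving out 1 library at a time gave 501 to 1490 higher and 1187 to 2713 lower. With the scaling held, the ranges were 1127 to 1520 and 1134 to 1603. The counts changed by over 1.5 times without mESC nucleoplasm 1 (595 and 2713), the TMM reference, and without mNPC nucleoplasm 1 (501 and 2050), 2 (534 and 2185) or 3 (725 and 2686). With TPM 4473, 5143 and 4582 genes were higher (no filter, pseudocount 0.1, pseudocount 1).

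In mNPC, chromatin against nucleoplasm gave 6669 higher and 2446 lower under library totals, and with TPM in the same order 11081, 13844 and 11136 higher and 1128, 1357 and 1137 lower; leaving out libraries gave 2916 to 4219 higher and 3835 to 4977 lower (3920 to 4257 and 3740 to 4101 with the scaling held). In mESC, library totals gave 4390 higher, no minimum fold 5270 higher and 5212 lower, and TPM 8186, 10803 and 8271 higher and 1088, 1296 and 1098 lower; leaving out libraries gave 2555 to 3843 higher and 2965 to 3349 lower (2571 to 3545 and 3072 to 3330 with the scaling held). The cause was not tested.

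With TPM 19 named genes had another sign than in the counts, 14 of them called in neither. Of the other 5, Il31ra, Pcdhgc4 and Mapt were called in the counts and Xist and Stmn2 in TPM: Il31ra (0.03, 0.24, 0.03), Pcdhgc4 (1.43, 2.55, 1.43), Xist (4.41, 2.99, 4.41), Stmn2 (1.11, 1.80, 1.11) and Mapt (0.21, 0.09, 0.21). The replicate block gave 1597 higher and 1566 lower, with 11 short-lived transcripts higher in place of 6, and every library correlated best with its own number except mNPC chromatin 2 (0.0366, against 0.0728 with nucleoplasm 3). Alternatives based on protein hydropathy were not run; codons were used in their place, a choice made after seeing the data. At 3 or fewer counts in a group, values are set by counting noise.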
